A study of Mus musculus with 8 samples.

Results

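A set of 416 array probes was strongly lowered from embryonic stem cells to trophectoderm in both genotypes of the study and yet stayed above background in trophectoderm. They were selected on the measured ratios and signals out of 42006 probes. A member had a sample signal of at least 3 times its local background on all 8 arrays. Its log2 ratio of sample over reference, centred on the median of each array, was lower in trophectoderm than in stem cells by at least 2.5, which is 5.66-fold, in the wild type and in the lamin B-null cells. Of the 16023 probes that met the brightness condition, called bright probes here, the fall was met by 3.58% in the wild type, by 2.88% in the lamin B-null cells and by 2.6% in both. The fall itself is therefore what chose the members. It is given below as a description, with no test.

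The study measured RNA of mouse embryonic stem cells (ESC) and of cells turned to trophectoderm (TE) on two-colour arrays with 60-base probes. There were 4 groups of 2 arrays: ESC wild type, ESC lamin B-null (called LB dKO, lacking Lmnb1 and Lmnb2), TE wild type and TE LB dKO. Sample RNA was labelled with Cy3 (green) and a common reference with Cy5 (red), with no dye swap. In the reference, a pool of RNA from 11 mouse cell lines made up 2 parts and RNA of 129 ES cells 1 part.

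All lines carried a tamoxifen-inducible Cdx2-ER transgene, inserted at random, and were male and of mixed C57BL/6;129S4Sv/Jae;129S6/SvEvTac background. They were derived from blastocysts of crosses between Lmnb1+/-; Lmnb2+/- mice, with 2 independent lines per genotype. Which array held which line is not stated in the labels, so the arrays of a group are treated as replicates, whose spread may be partly technical. TE cells were made from these ESC lines by 2 days with tamoxifen, FGF4 and heparin in 30% TS medium, a trophoblast stem cell medium, and 6 further days in 100% TS medium. The TE is thus a product of forced Cdx2 activity in culture and was not taken from embryos. The labels of the TE wild-type samples contradict themselves, with wild type as title and genotype but a gene knockout as genetic modification. Groups follow title and genotype here.

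Trophectoderm is the outer cell layer of the blastocyst, which attaches the embryo to the uterus and gives rise to the placenta, and Cdx2 is a transcription factor that directs cells to this fate. Embryonic stem cells stand for the inner cell mass, and genes of the pluripotent state are shut down when cells leave it. B-type lamins are filament proteins that line the inner face of the nuclear envelope, where they contact parts of the genome. The deposited files name probes by number and give their sequences but pair no probe with a gene, so members are described by probe and sequence. The identity of the cells by marker genes and the lamin deletion were not checked here for the same reason.

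The sequences of the members that carry the results follow, as 60-base probes read 5′ to 3′ from the deposited files. The largest fall of all was that of the next probe.
Z00038583-1: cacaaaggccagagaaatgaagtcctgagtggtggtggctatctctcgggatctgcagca
Among the 10 largest falls, Z00060226-1 and Z00072411-1 matched at 55 of 60 positions, with the 5 differing positions in capitals.
Z00060226-1: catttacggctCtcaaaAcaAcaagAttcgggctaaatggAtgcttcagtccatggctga
Z00072411-1: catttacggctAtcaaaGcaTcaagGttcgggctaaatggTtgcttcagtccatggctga
The next pair overlapped by 42 bases, in capitals, and combined a deep fall with a bright remaining signal.
Z00058380-1: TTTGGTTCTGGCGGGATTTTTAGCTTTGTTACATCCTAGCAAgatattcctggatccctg
Z00024317-1: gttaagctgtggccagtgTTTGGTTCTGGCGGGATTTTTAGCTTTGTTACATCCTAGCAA
Of the 5 members brightest in TE, 3 had a stretch of 39 bases in common, in capitals.
Z00030367-1: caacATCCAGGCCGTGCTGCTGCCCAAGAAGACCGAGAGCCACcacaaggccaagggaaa
Z00033752-1: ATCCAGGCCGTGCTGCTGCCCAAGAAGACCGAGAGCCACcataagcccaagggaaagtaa
Z00059316-1: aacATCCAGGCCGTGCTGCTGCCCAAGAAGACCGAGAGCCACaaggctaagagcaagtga
A trio with 27 bases in common, in capitals, was among the members with the highest ESC ratios and had the smallest adjusted p between genotypes in ESC, none of which passed the test.
Z00055646-1: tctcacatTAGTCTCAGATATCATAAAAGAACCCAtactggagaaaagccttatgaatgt
Z00060976-1: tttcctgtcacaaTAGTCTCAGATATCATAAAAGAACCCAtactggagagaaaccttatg
Z00077267-1: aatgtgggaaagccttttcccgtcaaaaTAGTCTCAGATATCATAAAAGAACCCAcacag
A pair with 19 bases in common, in capitals, is taken up with the genotype comparison, which neither probe passed in its main form.
Z00005148-1: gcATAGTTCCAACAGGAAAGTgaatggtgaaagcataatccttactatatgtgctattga
Z00013361-1: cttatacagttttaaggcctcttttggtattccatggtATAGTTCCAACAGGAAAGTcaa

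Across the members, the median log2 ratio on the ESC arrays was 0.94 and 1.29 in the wild type and 1.06 and 0.92 in LB dKO, replicates 1 and 2 in turn. On the TE arrays it was -2.02 and -2.73 in the wild type and -2.38 and -2.32 in LB dKO. The bright probes as a whole had medians between -0.15 and 0.24 on the same arrays. In each of the 416 members, every TE array lay below every ESC array. Of all bright probes, 30.7% were ordered in this way. The gap between the lowest ESC and the highest TE array ranged from 0.56 to 6.52 over the members, with a median of 2.54.

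**Figure D1:**
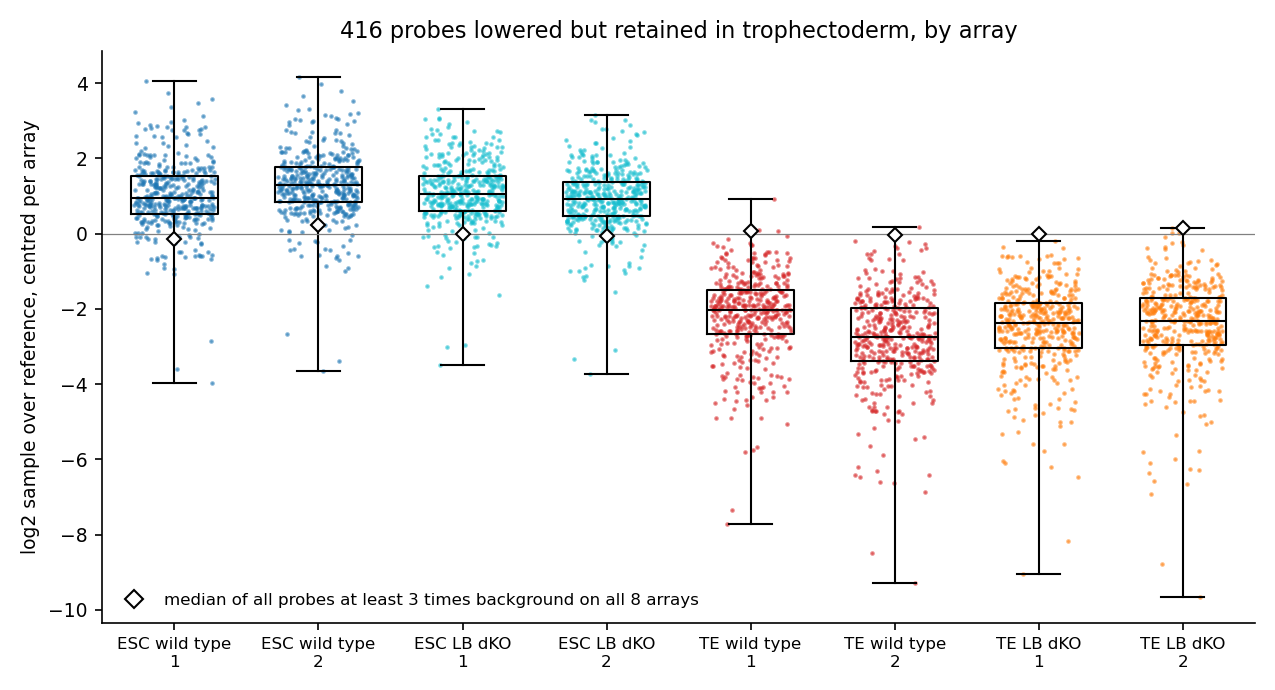
Log2 ratio of sample over reference, centred per array (vertical axis), of the 416 members on each of the 8 arrays (horizontal axis, replicate number under the group). Boxes give the quartiles and median, whiskers the full range, and diamonds the median of all 16023 bright probes. Member medians lie between 0.92 and 1.29 on the ESC arrays and between -2.73 and -2.02 on the TE arrays.

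The falls were graded. The median change from ESC to TE was -3.35 in the wild type, with a range of -7.54 to -2.5, and -3.16 in LB dKO, with a range of -8.06 to -2.51. Bright probes as a whole had median changes of 0.01 and 0.16. Averaged over both genotypes, 126 members had a change between -3 and -2.5, 201 between -4 and -3, 56 between -5 and -4, 19 between -6 and -5, and 14 of -6 or below. The median member kept 10.4% of its ESC ratio in TE, and the members ranged from 0.449% to 17.1%. Because the arrays measured bulk RNA, fewer cells that express a transcript and less of it per cell cannot be told apart.

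All ESC arrays were on 1 slide and all TE arrays on another, scanned separately, so cell type and slide cannot be told apart. The red reference channel, which held the same RNA on both slides, shows how the slides differed in Cy5 at these probes. It cannot show a difference in the green channel alone, and it is part of the ratio that chose the members. After centring, the members' reference signal changed from ESC to TE by a median of -0.1, with quartiles of -0.19 and -0.02. It changed by more than 1 in 2 of the 416 members, Z00063258-1 (-1.52) and Z00058380-1 (1.03). The sample signal alone was lower in TE by a median of 3.51 on the log2 scale, and by more than 2 in all 416 members.

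The deepest fall was that of Z00038583-1. Its log2 ratio was 1.45 and 1.93 on the ESC wild-type arrays, 1.63 and 1.51 on the ESC LB dKO arrays, -5.07 and -6.62 on the TE wild-type arrays, and -6.05 and -6.93 on the TE LB dKO arrays. The change was -7.54 in the wild type and -8.06 in LB dKO, leaving 0.449% of the ESC ratio. Even so, its signal was 9.88 times the local background on its dimmest TE array, down from at least 2100 times on the ESC arrays. Z00003616-1, Z00034687-1, Z00074667-1 and Z00005214-1 followed, with mean changes of -7.67, -7.56, -7.42 and -7.07. These 4 were close to the floor of the brightness condition in TE, at 3.85 to 4.17 times background on the dimmest array. In all 5 probes the TE wild-type replicate 1 was the highest of the TE arrays, and in Z00005214-1 it read -3.44 against -6.42 on replicate 2.

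The next 5 of the 10 largest falls were Z00072411-1, Z00024676-1, Z00031972-1, Z00060226-1 and Z00058380-1, with mean changes of -6.75, -6.75, -6.62, -6.52 and -6.37. Their TE arrays lay closer together. Z00058380-1 had log2 ratios of 2.01 and 2.06 in ESC wild type, 2.11 and 1.44 in ESC LB dKO, -4.08 and -4.72 in TE wild type, and -4.63 and -4.45 in TE LB dKO. Its signal on the dimmest TE array was still 81.6 times background, after at least 3620 times on the ESC arrays. The overlapping probe Z00024317-1 gave a mean change of -6.05 and 80.8 times background. The near-identical probes Z00060226-1 and Z00072411-1 had mean changes of -6.52 and -6.75 but remaining signals of 55.4 and 15.1 times background. The reference signal of Z00058380-1 was higher on the TE slide by 1.03, and in the sample channel alone its mean change was -5.52 in place of -6.37.

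**Figure D2:**
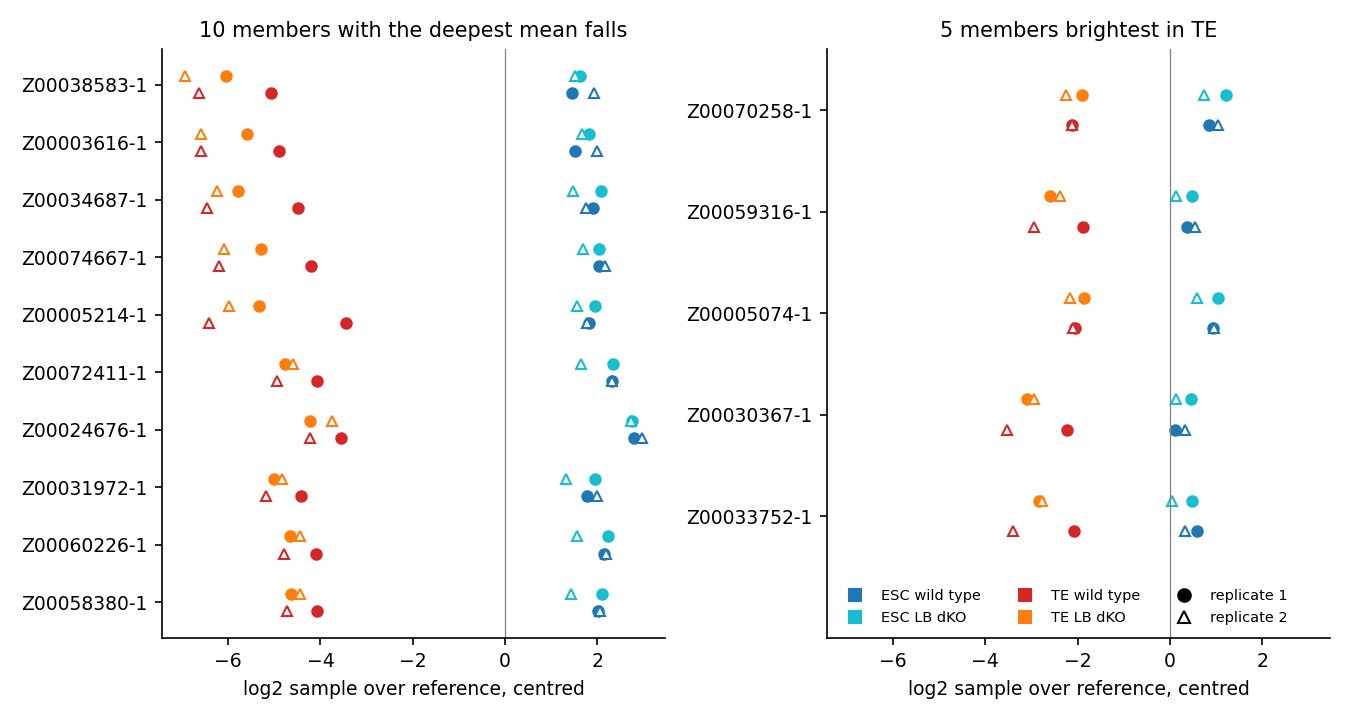
Log2 ratio of sample over reference, centred per array (horizontal axis), of the 10 members with the deepest falls (left) and the 5 members brightest in TE (right). Each point is 1 array, coloured by group, with filled circles for replicate 1 and open triangles for replicate 2. All TE values lie below all ESC values, and TE wild-type replicates differ most in the 5 uppermost probes on the left.

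The members that kept the brightest signals in TE were Z00070258-1, Z00059316-1, Z00005074-1, Z00030367-1 and Z00033752-1, at 176, 159, 138, 136 and 133 times background on the dimmest TE array. Their mean changes were -3.06, -2.84, -2.92, -3.21 and -3.13, none of them deeper than the members' median of -3.27. Z00070258-1 had log2 ratios of 0.85 and 1.05 in ESC wild type, 1.21 and 0.73 in ESC LB dKO, -2.12 and -2.13 in TE wild type, and -1.9 and -2.24 in TE LB dKO. Its replicates lay close to each other in every group. Z00030367-1 had 0.12 and 0.33, 0.45 and 0.14, -2.22 and -3.52, and -3.1 and -2.95 in the same order. The TE wild-type replicates were further apart in this probe, and likewise in Z00033752-1 (-2.08 and -3.39) and Z00059316-1 (-1.89 and -2.94), which share sequence with it.

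At the other end, Z00073880-1, Z00031023-1, Z00015779-1, Z00022693-1 and Z00015343-1 were 3.0 to 3.05 times background on their dimmest TE array. Their mean changes lay between -3.89 and -3.1, near those of the brightest members. Over all members the lowest TE signal had a median of 6.24 times background, with quartiles of 4.03 and 13.7. It was at least 5 times background in 259 members, at least 10 times in 129, at least 50 times in 31 and at least 100 times in 10. On the scanner's own flag, all 416 members were well above background on all 8 arrays in both channels. No member had a saturated spot, an outlier spot or a substitute value.

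The members came from the bright end of the probes that were lowered in TE. With the same fall in both genotypes and at least 3 times background on all 4 ESC arrays there were 1185 probes, of which 416 were members and 494 were below 3 times background on all 4 TE arrays. The remaining 275 were below it on 1 to 3 TE arrays. The median signal in ESC was 120.0 times background for the members and 8.04 times for the 494 probes. In TE the medians were 10.1 and 1.81 times. The median changes were nearer to each other, at -3.27 and -3.98. Of the probes at 10 to 30 times background on their dimmest ESC array, 17.9% were members, against 69.2% at 30 to 100 times and 92.3% at 100 times or more. The median change in these 3 classes was -3.57, -3.43 and -3.66. Since the rule sets both the fall and the brightness, these shares describe how it divides the probes and carry no test. By the scanner's flag, 150 of the 494 were still well above background on all 4 TE arrays, so the cut at 3 times does not mark silence. Of the 494, 95 had a substitute value for a dim spot on at least 1 TE array, so their changes are less exact than those of the members.

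**Figure D3:**
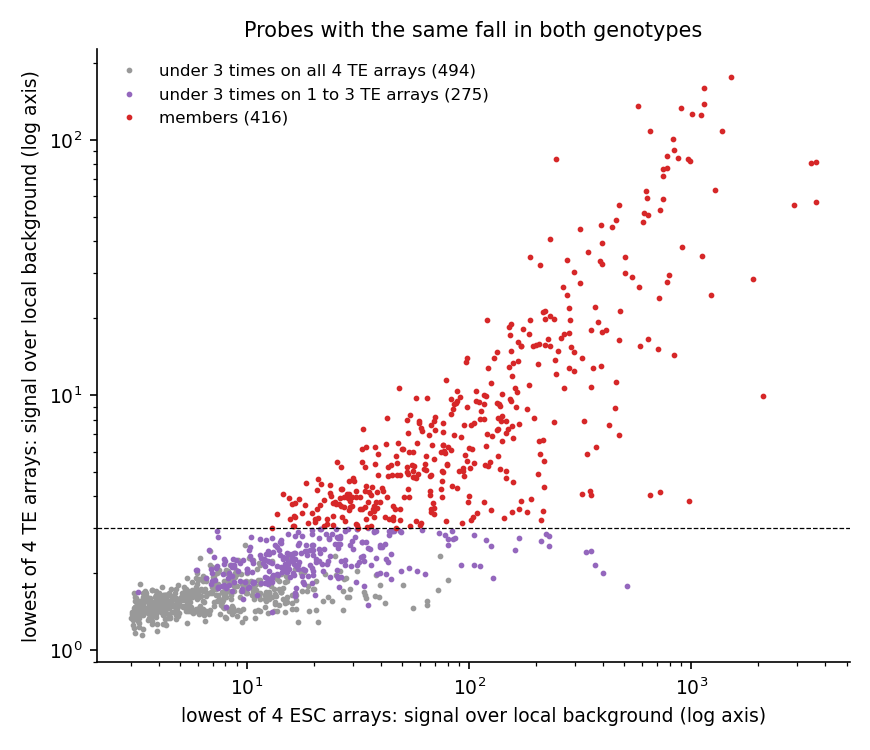
Signal over local background on the dimmest of 4 ESC arrays (horizontal, log axis) and on the dimmest of 4 TE arrays (vertical, log axis) for the 1185 probes with the same fall in both genotypes. The dashed line marks 3 times background, and the 416 members lie above it, spreading to 176 times in TE, while the 494 probes below it on all TE arrays come mostly from the dim end in ESC.

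In rank, the members moved from near the top of the array to its upper middle. Their sample signal was at a median percentile of 91.8 among all probes in ESC and of 68.0 in TE. The bright probes as a whole stood at 80.5 and 80.4. The 698 bright probes that were higher in TE by at least 2.5 in both genotypes, 4.36% of the bright probes, moved from 69.4 to 92.6. Their median signal was 10.1 times background in ESC and 140.0 times in TE, against 120.0 and 10.1 times for the members.

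The reference sets a scale for the ESC ratios. A transcript found only in the ES cell part of the reference, at the same level as in the sample, would read log2 of 3, or 1.58, before any centring. The mean ESC ratio was above that value in 101 members (24.3%, against 3.1% of all bright probes), between 0 and that value in 285, and at or below 0 in 30. The highest were the trio Z00077267-1, Z00055646-1 and Z00060976-1, with mean ESC ratios of 3.58, 3.33 and 3.18, and Z00031255-1 with 3.3. Lowest were Z00074503-1, Z00009495-1 and Z00074950-1, with -3.72, -3.33 and -2.9, which gave less signal in ESC than in the reference. Z00074503-1 read -3.98 and -3.65 in ESC wild type, -3.5 and -3.72 in ESC LB dKO, -7.71 and -9.29 in TE wild type, and -9.05 and -9.65 in TE LB dKO. Its values in TE were the lowest of any member, at 7.93 times background on the dimmest array. No member had a mean TE ratio above 0. The ESC and TE ratios are the terms of the fall that chose the members. These shares are therefore a description and carry no test.

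Both genotypes gave nearly the same falls, which the rule partly fixes. Across the 416 members the changes in the wild type and in LB dKO had a correlation of 0.92, a description over probes that share the arrays. The change was larger in the wild type in 288 members and larger in LB dKO in 128. The median difference between the changes, LB dKO minus wild type, was 0.14 in the members and 0.15 in the bright probes. The 2 changes were more than 1 apart in 11 members (2.64%, against 2.23% of bright probes).

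**Figure D4:**
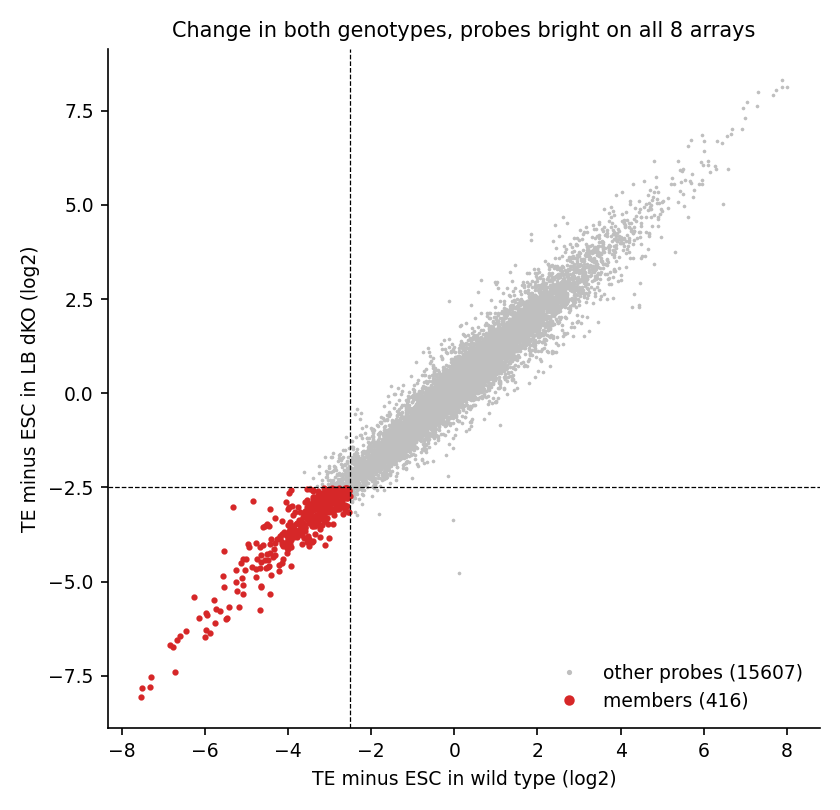
Change from ESC to TE on the log2 scale in the wild type (horizontal) and in LB dKO (vertical) for the 16023 bright probes, with the 416 members in red. Dashed lines mark the threshold of -2.5, and the members extend from there along the diagonal to -7.54 and -8.06.

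The largest differences between the changes were those of Z00076164-1 (-5.33 in the wild type and -3.03 in LB dKO), Z00034921-1 (-4.84 and -2.86) and Z00060365-1 (-4.43 and -3.06). In each, ESC LB dKO replicate 1 stood apart. Without it, the differences of 2.3, 1.98 and 1.37 became 1.17, 0.92 and 0.27. Z00076164-1 read 1.63 and 1.34 in ESC wild type but -1.63 and 0.63 in ESC LB dKO. For Z00034921-1 the ESC LB dKO arrays read -0.87 and 1.25, and for Z00060365-1 they read -1.16 and 1.06. Replicate 1 was more than 1 below every other ESC array in 6 members, which besides these 3 were Z00026479-1, Z00031338-1 and Z00034851-1. The same held for 2 members on ESC LB dKO replicate 2 and for none on either ESC wild-type array. On ESC LB dKO replicate 1, 0.0749% of bright probes were that low, and on ESC LB dKO replicate 2, 0.119% were.

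Genotype was compared within ESC, within TE and over both cell types. The rule set no genotype difference. Its falls do share group means with the comparisons within ESC and within TE, so these are not independent of the selection. The comparison over both is free of that overlap, although brightness was required in every group. The question, from the title of the series, was whether loss of the B-type lamins altered gene expression. None of the 416 members differed between LB dKO and wild type in ESC, in TE or over both cell types together at an adjusted p under 0.05 (limma, Benjamini-Hochberg over 27417 tested probes). Over all tested probes the called shares were 0.186%, 0.146% and 0.325%. At an unadjusted p under 0.05, limma counted 10 members in ESC (2.4%, background 4.02%), 4 in TE (0.962%, background 3.46%) and 8 over both (1.92%, background 4.11%). The smallest adjusted p of any member in these limma fits was 0.321 in ESC, 0.72 in TE and 0.151 over both. The count of 0 depended on the TE wild-type replicate 2: without it, 15 members (3.61%, background 4.19%) were called in TE, 4 of them higher in LB dKO, and 4 (0.962%, background 1.99%) over both, 1 of them higher. That fit leaves a single array in the TE wild type, which is assumed to vary like the other groups. The count also depended on the model. With the replicate number as a block, 6, 1 and 6 members were called in ESC, in TE and over both. Among all 27417 tested probes, 744, 755 and 687 were. The labels do not state that same-numbered arrays are pairs.

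A p above the threshold does not show equal levels, and the intervals give what the 8 arrays allow. The 95% interval of the difference stayed within 2-fold in either direction in 213 members (51.2%) in ESC, in 227 (54.6%) in TE and in 359 (86.3%) over both. Of all tested probes, 58.4%, 53.7% and 80.2% met this. The median difference, LB dKO minus wild type, was -0.14 in ESC, where the median of all tested probes was -0.07, and 0.01 in TE, against 0.07. In ESC, where the median of all tested probes was also negative, 316 of 416 members were lower in LB dKO. In TE, 207 were lower and 209 higher. The share of all tested probes that were lower in LB dKO was not counted, so these counts are not read as a trait of the members. LB dKO samples had positions 1 and 2 and wild-type samples positions 3 and 4 on each slide, so genotype and position cannot be told apart.

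**Figure D5:**
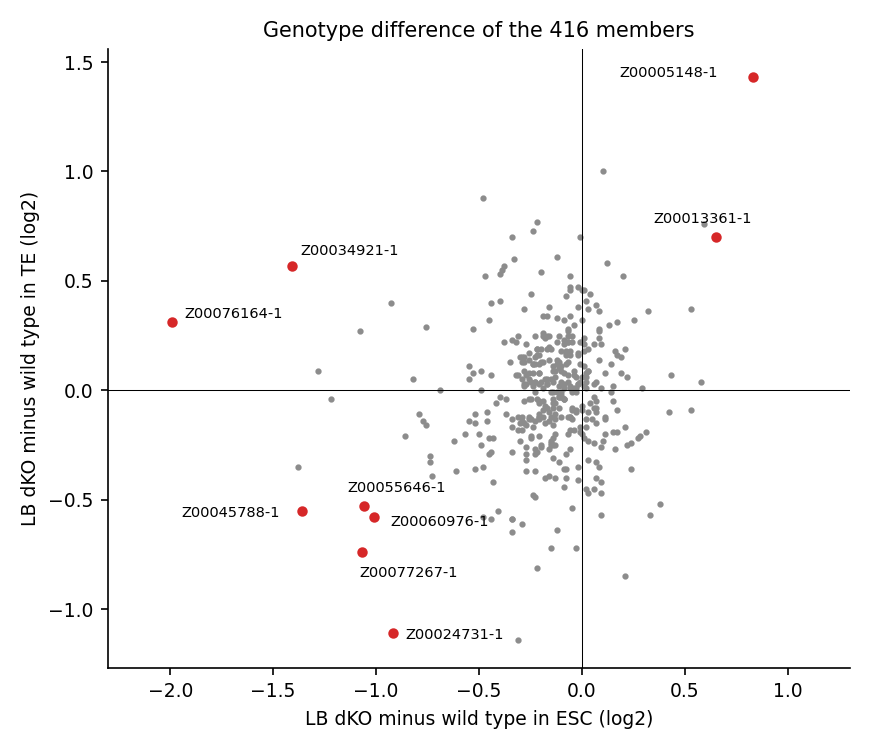
Difference between LB dKO and wild type on the log2 scale in ESC (horizontal) and in TE (vertical) for the 416 members, with probes named in the text in red. Values in ESC range from -1.99 to 0.83 and values in TE from -1.14 to 1.43. None passed the limma test without a replicate block.

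The members nearest to a genotype difference are named after their values were seen, and none passed the test without the block. In the trio with shared sequence, the ESC arrays of the genotypes did not overlap. Z00077267-1 read 4.07 and 4.17 in ESC wild type, 3.06 and 3.03 in ESC LB dKO, -0.7 and -0.55 in TE wild type, and -1.27 and -1.47 in TE LB dKO. Its difference was -1.07 (SE 0.25) in ESC, -0.74 (SE 0.25) in TE and -0.91 (SE 0.18) over both, with limma adjusted p of 0.321, 1 and 0.151. Z00055646-1 and Z00060976-1 had differences of -1.06 and -1.01 in ESC and of -0.53 and -0.58 in TE. Because the 3 probes share 27 bases, they may read the same transcript and do not count as separate evidence.

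Z00005148-1 had the largest positive difference, LB dKO minus wild type, in each cell type, with log2 ratios of 1.07 and 1.3 in ESC wild type, 2.11 and 1.91 in ESC LB dKO, -4.46 and -3.4 in TE wild type, and -2.77 and -2.23 in TE LB dKO. The groups did not overlap in either cell type, and the difference over both was 1.13 (SE 0.27, limma adjusted p = 0.325). Z00013361-1, which shares 19 bases with it, differed by 0.65 in ESC and 0.7 in TE, and its TE genotypes overlapped. Arrays of the genotypes did not overlap in 110 members in ESC (26.4%, against 17.8% of bright probes) and in 58 in TE (13.9%, against 20.9%). They did not overlap and differed in the same direction in ESC and TE in 13 members (3.12%, against 2.47% of bright probes). Of these, 2 read higher in LB dKO (0.88% of bright probes did) and 11 lower (1.59% of bright probes). The directions were opposite in 10 members (2.4%, against 1.75%). With 2 arrays against 2, such counts are descriptions and carry no test.

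Replicates differed unevenly between the groups. The SD over members of the difference between replicates was 0.25 in ESC wild type, 0.46 in ESC LB dKO, 0.75 in TE wild type and 0.4 in TE LB dKO. For bright probes it was 0.24, 0.32, 0.66 and 0.36. In TE wild type, 126 members were more than 1 higher on replicate 1 and 13 more than 1 higher on replicate 2. Differences over 1 in either direction were found in this group in 33.4% of members and 11.8% of bright probes. The median of replicate 2 minus replicate 1 was -0.66 there, against -0.12 in bright probes. So the TE wild-type replicate 1 showed a smaller fall at these probes. The largest replicate differences of single members all came from this group: Z00005214-1 (above), Z00011824-1 with -1.54 and -4.5, and Z00074151-1 with -0.76 and -3.42. Without replicate 1 the members' median change in the wild type was -3.73, and without replicate 2 it was -3.06.

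Choosing probes on some arrays and reading them on the others shows how far the set holds in arrays that did not choose it. On the replicate 1 arrays alone, 429 probes met the rule. On the replicate 2 arrays, 342 of them (79.7%) were again lower by at least 2.5 in both genotypes, with median changes of -4.02 in the wild type and -3.25 in LB dKO. The replicate 2 arrays alone chose 426 probes, of which 277 (65.0%) met the fall on the replicate 1 arrays, with medians of -2.81 and -3.28. These shares are for the fall alone. The brightness condition was met on the arrays not used by 352 of the 429 and by 416 of the 426. Both choices had 268 probes in common, which met the fall and the brightness condition on either set of arrays. On the arrays not used, 423 of 429 and 410 of 426 probes were more than 2-fold lower in both genotypes. The weakest changes of the 429 were -0.72 in the wild type and -0.38 in LB dKO. Those of the 426 were 2.18 and -0.63, so not every probe fell in the wild type on replicate 1. The replicate arrays shared a slide, so this does not separate cell type from slide.

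Near the threshold the division is arbitrary. The 5 members just inside it were Z00006003-1, Z00004999-1, Z00030955-1, Z00019834-1 and Z00050331-1, whose weaker change lay between -2.518 and -2.5. The 5 bright probes just outside were Z00017769-1, Z00056511-1, Z00023172-1, Z00030515-1 and Z00052142-1, whose weaker change lay between -2.497 and -2.489. Z00017769-1, at 85.3 times background in TE, was among the brighter of these 10.

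Some members shared sequence with each other. In 32 pairs, members had at least 20 bases in a row in common, and these pairs joined 47 members into 21 groups of up to 5. Within pairs the mean changes differed by a median of 0.26 and at most 0.72, against a median of 0.61 over all pairs of members. These are the values that chose the members, and overlapping probes can read the same transcript, so the closeness is a description. The group of 5 comprised Z00030367-1, Z00030368-1, Z00032026-1, Z00033752-1 and Z00059316-1, with mean changes of -3.21, -3.78, -3.46, -3.13 and -2.84. Such partly shared sequences can capture each other's transcripts, so their separate levels are uncertain. Counting 1 probe per group left 390 members. Of the probes outside the set, 6 shared at least 20 bases with a member. Of these, 4 were bright and had mean changes between -2.65 and -1.56, and the other two had mean changes of -4.98 (Z00028025-1) and -3.2 (Z00063670-1) but dropped to 2.93 and 2.85 times background in TE.

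In base composition the members resembled the array. Their median GC content was 43.3%, the same as for bright probes and for all probes, with a highest value of 78.3%. The hexamer AATAAA, the usual signal for adding the poly(A) tail, was searched on the probe strand and stood in 39 members (9.38%), against 8.59% of bright probes and 6.93% of all probes. The pentamer ATTTA, the core of elements tied to rapid mRNA decay, stood in 7.69% of members, 7.67% of bright probes and 7.25% of all probes. These matches describe the probe letters and carry no test.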

How the data were processed

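The 8 scanner files, 1 per array, were used, each with total RNA of 1 sample in green over a common reference in red. Per the file headers, the authors quantified the spots with Feature Extraction 9.5.1.1 (protocol GE2-v5_95_Feb07), which gives the mean spot intensity, the median local background intensity and a processed intensity, background-subtracted and dye-normalized, with substitute values for dim spots. Deposited flags per spot are 0 or 1, a fraction when averaged over spots. A deposited table of 25030 features on a log10 scale, used as an alternative, held 288 of the members. How its features were chosen is not given in the sources.

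Here, spots other than controls were averaged per probe (7 of 42006 probes had several spots), and log2 of processed green over red was centred on each array's median. The centring moved arrays by -0.1 to 0.24. On all 8 arrays the median fell on the value that probes with substitute values in both channels share. This scale, on which the members are defined, was used throughout, and normexp correction with an offset of 50 followed by loess was an alternative. Between 47.1% and 68.0% of probes were well above background. The number of arrays limits the precision.

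Genotype was tested with limma 3.58.1 in R 4.3.3 (lmFit and eBayes, 4 group means, 4 residual degrees of freedom) on 27417 probes, those with 1 or more groups in which both arrays were well above background. The procedure was tested on simulated data. The simulation drew independent values for each array, so it did not cover the correlation between same-numbered arrays given below. Members and comparisons were chosen with earlier results of these data known. Probes named are the 10 largest falls, the 5 brightest and 5 dimmest in TE, 5 on each side of the threshold, and the 3 largest differences between genotypes and between replicates. Others are named after their values were seen. Alternatives changed the thresholds, normalization, channel, filter, outlier spots, variance model, replicate block and arrays.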

Additional observations from a re-analysis of the deposited data

Results flagged for a closer look

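One named member had genotype differences of opposite sign in ESC and TE, with every LB dKO array on the same side of both wild-type arrays within each cell type. Z00060365-1 was lower in LB dKO than in wild type in ESC, by -1.28 (SE 0.59) on the log2 scale, and 0.09 higher in TE, so its change from ESC to TE differed by 1.37 between the genotypes. The ESC value rested on LB dKO replicate 1, which read -1.16, while the remaining ESC arrays read 1.06, 1.2 and 1.27. Without that array the 1.37 became 0.27. The difference between the cell types was not tested.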

How the results depend on the processing

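The number of members followed the thresholds: 787 probes met a fall of 2.0 and 239 a fall of 3.0, 654 met 2 times background and 259 met 5 times, and 834 met the scanner's flag alone. Under normexp and loess, no centring, the sample channel alone and the deposited table it stayed within 1.5 times of 416, as it did without outlier spots and without each array. The members' median change in LB dKO was -2.98 under normexp and loess, -3.32 without centring, -3.47 in the sample channel and -3.38 in the deposited table, and -3.29 to -3.15 without 1 array. For 35 named probes, 390 of 407 alternative values of the mean change moved by less than 1 SD, and none changed sign. The SD is that of the replicates, pooled over the 4 groups. Leaving out 1 array cannot move a mean change by 1 such SD, so for those alternatives this outcome was fixed in advance.

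Calls between genotypes over all probes moved more. In ESC, TE and over both they numbered 35, 6 and 49 under normexp and loess, 24, 1 and 60 without centring, 24, 17 and 55 in the sample channel, 12, 2 and 22 in the deposited table, 17, 8 and 35 on bright probes, and 9, 1 and 15 without a filter. The cause was not tested. Leaving out 1 array gave 2 to 227, 4 to 1149 and 22 to 545, lowest without an ESC wild-type array and highest without a TE wild-type array. No member was called under any of these, except that without TE wild-type replicate 2 there were 0, 15 and 4 (0 to 15 in TE and 0 to 4 over both across the arrays left out). With the replicate number as a block, 744, 755 and 687 probes were called, of them 6, 1 and 6 members. The members were Z00076164-1, Z00034921-1, Z00031338-1, Z00045788-1, Z00060365-1 and Z00026479-1 in ESC, Z00005148-1 in TE (adjusted p 0.00474 in limma) and, over both, Z00005148-1, Z00024731-1, Z00045788-1, Z00077267-1, Z00031338-1 and Z00076164-1. Same-numbered deviations correlated by 0.58 in ESC and 0.63 in TE over members and by 0.75 in each over bright probes, but with 2 pairs per cell type and no such statement in the labels the numbers are not taken as pairs. Chosen after seeing the data, 438 probes met the rule without both TE arrays of replicate 1. Without ESC LB dKO replicate 1, also added after seeing the data, the difference between the changes of both genotypes went from 1.03 to -0.09 in Z00031338-1.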
